A study of Mus musculus with 10 samples.

Results

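The genes described are 5 that encode parts of the phagocyte NADPH oxidase (Cybb, Cyba, Ncf1, Ncf4 and Rac2) and Padi4, which encodes a peptidylarginine deiminase. They were found by matching the Ensembl identifiers of the count table to those symbols in GENCODE M21, which gave 6 genes of the 55385 mouse genes in the table. RNA was sequenced in bulk from tumour neutrophils of grafted mouse squamous cell carcinomas, sorted by a Tomato reporter. Grafts were either parental control tumours with low Sox2 (Sox2low) or Sox2Hi SCC tumours with high Sox2, a transcription factor of stem cells. They were naive or treated with anti-PDL1 and a CD40 agonist, an immunotherapy combination. Libraries numbered 3 for naive control tumours, 2 for treated control tumours, 3 for naive Sox2Hi tumours and 2 for treated Sox2Hi tumours.

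All groups shared the host, the CatchupIVM-red mouse, in which the neutrophil gene Ly6g drives Cre and the red reporter, so the sort selects cells that have used that promoter. Library names carry C57 in all groups, with GFP for control grafts and Sox2 for Sox2Hi grafts. Ages, doses, treatment times, the number of tumour cell clones and whether animals were pooled are not given in the sources used here. The labels do not say whether replicates came from separate animals, so p-values measure the spread between these libraries. The design asks how the graft and the treatment alter the RNA of the neutrophils.

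In a resting neutrophil the oxidase is unassembled. Cybb (the catalytic gp91phox subunit) and Cyba (p22phox, which stabilises it) sit in membranes as cytochrome b558, while Ncf1 (p47phox, the organiser) and Ncf4 (p40phox, which binds a phosphoinositide of phagosomes) stay in the cytosol. On stimulation the cytosolic proteins move to the membrane with the GTPase Rac2, and the complex passes electrons from NADPH to oxygen to form superoxide, the respiratory burst. Padi4 turns arginine of histones into citrulline, a change that loosens chromatin when neutrophils release extracellular traps.

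Promoter windows were matched by symbol to RefSeq (GRCm38.p6) and were held for 4 of the 6 genes, Cybb, Cyba, Ncf1 and Padi4. They are shown because the oxidase genes were higher in every treated library while Padi4 was not. Each window covers 250 bases before and 50 bases after the start on the coding strand, 5′ to 3′. Capitals mark matches, on either strand, to 4 motifs: the PU.1-type ETS core GAGGAA, the interferon-stimulated response core GAAANNGAAA, the gamma-activated site TTCNNNGAA and the AP-1 site TGANTCA.
Cybb promoter, chrX:9469275-9469574, minus strand: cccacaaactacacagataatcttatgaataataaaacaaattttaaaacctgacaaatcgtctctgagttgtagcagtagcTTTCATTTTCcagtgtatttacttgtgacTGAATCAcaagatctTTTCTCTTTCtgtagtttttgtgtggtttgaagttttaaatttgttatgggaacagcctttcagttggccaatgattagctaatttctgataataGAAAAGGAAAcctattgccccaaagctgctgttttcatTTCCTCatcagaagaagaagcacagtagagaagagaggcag
Cyba promoter, chr8:122432891-122433190, minus strand: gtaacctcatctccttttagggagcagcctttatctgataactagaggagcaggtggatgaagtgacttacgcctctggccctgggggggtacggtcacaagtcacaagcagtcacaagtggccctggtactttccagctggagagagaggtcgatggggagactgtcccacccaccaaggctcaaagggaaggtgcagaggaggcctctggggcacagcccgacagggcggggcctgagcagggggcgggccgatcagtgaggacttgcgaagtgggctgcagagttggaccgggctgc
Ncf1 promoter, chr5:134229576-134229875, minus strand: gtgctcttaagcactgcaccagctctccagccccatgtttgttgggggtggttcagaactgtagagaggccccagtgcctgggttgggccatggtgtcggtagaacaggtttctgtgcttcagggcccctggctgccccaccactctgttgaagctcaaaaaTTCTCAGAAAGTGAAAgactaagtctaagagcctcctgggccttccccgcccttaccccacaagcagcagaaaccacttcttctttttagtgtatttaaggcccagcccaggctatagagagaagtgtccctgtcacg
Padi4 promoter, chr4:140774154-140774453, minus strand: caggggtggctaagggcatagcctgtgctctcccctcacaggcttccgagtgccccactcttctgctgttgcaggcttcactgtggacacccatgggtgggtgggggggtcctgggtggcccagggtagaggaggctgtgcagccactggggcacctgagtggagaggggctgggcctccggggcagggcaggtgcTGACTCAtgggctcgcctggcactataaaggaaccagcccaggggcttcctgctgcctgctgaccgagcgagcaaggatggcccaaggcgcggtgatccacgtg

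The Cybb window held 3 matches to the interferon-stimulated response core, at positions 83, 127 and 222 of the window, 1 to the ETS core at position 260 and 1 to the AP-1 site at position 112. The Ncf1 window held 1 match to the interferon-stimulated response core at position 169, which overlaps 1 match to the gamma-activated site at position 163. The Padi4 window held 1 AP-1 match at position 197. No match lay in the Cyba window, which says only that those letters are not in these 300 bases. Over all 32851 windows of that length, 28.3% held the ETS core, 3.44% the interferon-stimulated response core, 8.30% the gamma-activated site and 7.81% the AP-1 site. A match is a description of letters and not of binding.

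Libraries held 13815734 to 22986193 gene counts. Levels are counts relative to library size (CPM), scaled by TMM factors computed on the 11274 genes whose mean reached 5 CPM, the expressed-gene scaling. A second scaling, from 29648 genes kept by edgeR's count filter, the all-gene scaling, is given where it changes a result, because it moved with reads over silent genes. Expected background, from 1466 silent genes, was 1.58% to 1.74% of counts in control treated libraries and 3.63% to 8.39% in the other libraries. None of 20 neutrophil markers was at 0 in all libraries. The same held for the markers of other cells, so this does not establish identity. Ly6g itself was low, at 1.74 to 17.8 CPM, while the summed markers ran from 14042 to 47981 CPM. Reads of Ddx3y, a Y-linked gene, were at most 8 in 4 libraries, 1 in each group, and at least 1007 in the other 6.

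Between 110 and 27776 reads per library stood behind each of the 6 genes. Per kb of exon, which allows genes to be compared, the order in control naive libraries was Cyba (mean 426 CPM per kb), Ncf4 (105), Cybb (36.1), Rac2 (28.3), Ncf1 (8.55) and Padi4 (1.82). Of these neighbours only Cybb (24.0 to 46.5 CPM per kb) and Rac2 (22.0 to 37.0) overlapped between libraries. In control treated libraries the order was the same, from 1656 CPM per kb for Cyba to 2.12 for Padi4, with no neighbours overlapping. In Sox2Hi naive libraries Cybb and Rac2 again overlapped (means 36.8 and 36.9 CPM per kb). In Sox2Hi treated libraries Cybb lay at 79.0 and 180 CPM per kb and Rac2 at 58.9 and 65.9. Summed over all libraries, reads expected from background made up 0.0427% to 2.40% of the counts of the 5 oxidase genes and 17.0% of those of Padi4. Expected background was lowest in the control treated libraries, as given above.

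**Figure D1:**
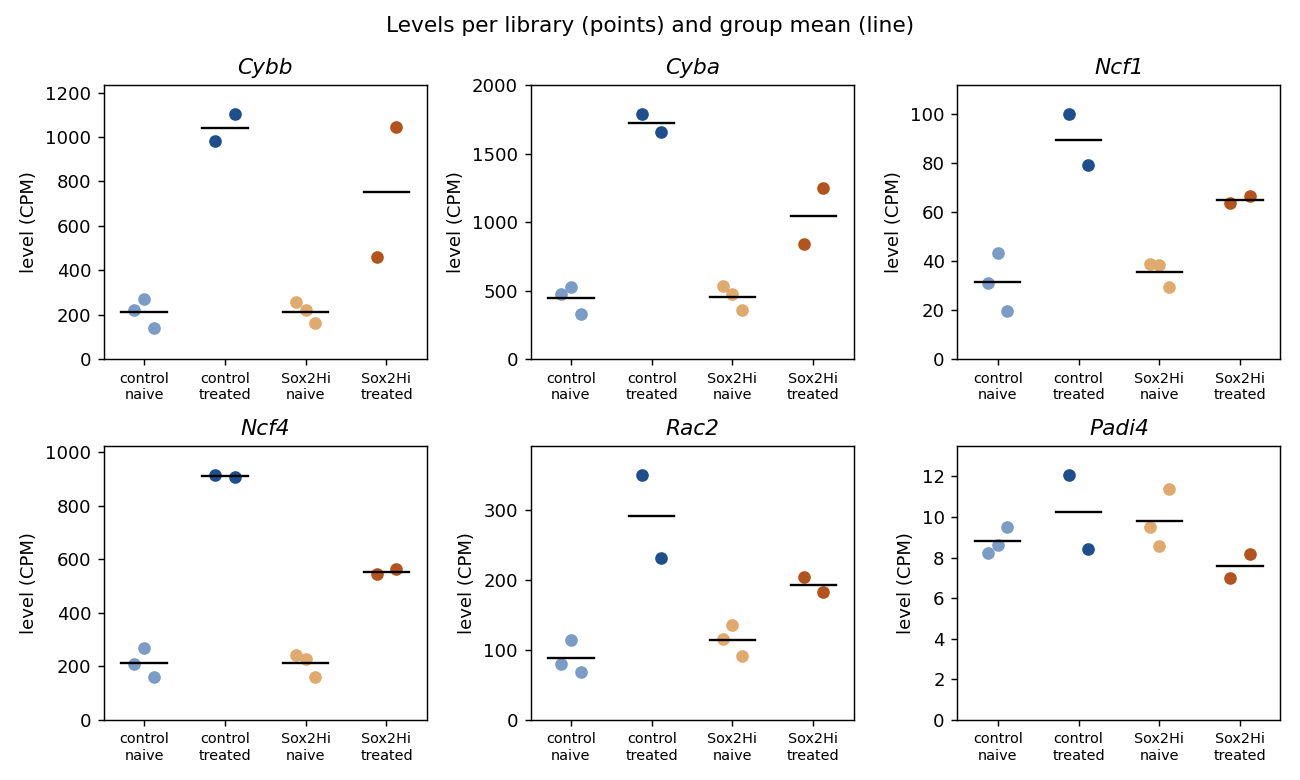
Level of each of the 6 genes in every library (CPM under the expressed-gene scaling, linear axis), by graft and treatment, with points for libraries and a bar for the group mean. Treated libraries of both grafts lie above the naive ones for all 5 oxidase genes, while Padi4 stays between 7.01 and 12.1 CPM in all 10 libraries.

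In control tumours all 5 oxidase genes rose with treatment, by 2.9- to 5.0-fold, and Padi4 did not pass the test. The count of 5 of 6 genes called higher, in edgeR's quasi-likelihood test with Benjamini-Hochberg adjustment under 0.05, stood against 24.1% of all genes tested that were called higher and 57.3% called in either direction. The median log2 fold change of the 6 genes was 1.84, beside -0.18 over all genes tested. All treated libraries lay above all naive libraries for the 5 genes, as they did for 29.6% of genes tested. All 20 markers of neutrophils were measured as well, and 18 rose in this comparison (median log2 fold change 2.02). Since these are bulk samples, fewer cells of a type and less RNA per cell cannot be told apart.

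In Sox2Hi tumours 4 of the 6 genes rose with treatment, Cybb, Cyba, Ncf1 and Ncf4, beside 15.0% of all genes tested called higher and 21.6% called in either direction. The all-gene scaling called 3, without Ncf1, beside 1.79% of genes called higher. The median log2 fold change was 1.04 over the 6 genes and 0.09 over all genes tested. Again every treated library lay above every naive one for all 5 oxidase genes (37.0% of genes tested). Of the 20 neutrophil markers 12 rose, with a median log2 fold change of 1.35. Scaled to the summed neutrophil markers, only Ncf4 of the 6 was called, beside 1.31% of all genes called higher. The calls of the 4 genes were lost without the second treated replicate. That fit has 1 treated Sox2Hi library and takes its spread from the other groups. The log2 fold changes of the 4 genes were then 1.04, 0.83, 0.78 and 1.31 in the order above.

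Cybb (ENSMUSG00000015340, chromosome X, 9435252 to 9487771, minus strand, coordinates of GRCm38 as for all genes here) encodes the subunit that carries the electrons. In control tumours it measured 220, 270 and 139 CPM in naive libraries and 982 and 1102 CPM in treated libraries. In Sox2Hi tumours it measured 255, 223 and 163 CPM in naive libraries and 459 and 1044 CPM in treated libraries. The naive grafts overlap fully, and the Sox2Hi treated libraries stand far apart, one inside the control treated range and one below it. The treatment change was a log2 fold change of 2.31 (SE 0.35, adjusted p = 0.00051, edgeR) in control tumours, 4.97-fold. In Sox2Hi tumours it was 1.81 (SE 0.34, adjusted p = 0.0074, edgeR), and 1.04 (adjusted p = 0.14, edgeR) without the second treated replicate.

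That replicate also had the highest summed dendritic cell markers, 23161 CPM against 9543 CPM in the first treated replicate. Most of that sum was Cd74 and H2-Ab1, the invariant chain and a class II chain of antigen presentation, at 18336 and 4778 CPM. Of the other 8 dendritic cell markers, Itgax, Ccr7 and Flt3 were lower there than in the first treated replicate, at 16.9 against 21.7, 5.25 against 6.44 and 2.86 against 3.51 CPM. Xcr1, Clec9a, Cd209a, Siglech and Zbtb46 were higher, the largest gap being 10.6 against 4.40 CPM for Xcr1. Summed macrophage and monocyte markers were 2409 against 1273 CPM. Ddx3y had 7 reads there and 3980 in the first treated replicate. With the Ddx3y split as a term in the fit, the X-linked Cybb changed by 2.27 (SE 0.32) in control and 1.71 (SE 0.33) in Sox2Hi tumours on the log2 scale. The part of these markers in the Cybb difference was not tested.

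Cyba (ENSMUSG00000006519, chromosome 8, 122424776 to 122432930, minus strand) encodes the partner that keeps the Cybb protein stable. Its levels in control tumours were 475, 523 and 331 CPM in naive libraries, against 1786 and 1654 CPM in treated libraries. In Sox2Hi tumours they were 533, 475 and 355 CPM in naive libraries, against 843 and 1247 CPM in treated libraries. Both treated Sox2Hi libraries were above all naive libraries and below both control treated libraries. Treatment raised Cyba by a log2 fold change of 1.96 (SE 0.25, adjusted p = 0.00023, edgeR) in control tumours and 1.20 (SE 0.24, adjusted p = 0.0099, edgeR) in Sox2Hi tumours. Of the 31-base words of its transcripts, 7.39% occur in other genes, so a small part of its counts may be shared.

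Ncf4 (ENSMUSG00000071715, chromosome 15, 78244801 to 78262580, plus strand) had the smallest spread between treated replicates of the 5 oxidase genes in control tumours. It stood at 210, 269 and 159 CPM in naive control libraries and at 915 and 909 CPM in treated ones. The Sox2Hi naive libraries held 243, 228 and 160 CPM and the Sox2Hi treated libraries 546 and 562 CPM. Groups therefore fell into 3 separate bands: the naive libraries of both grafts, Sox2Hi treated and control treated. Treatment raised it by a log2 fold change of 2.10 (SE 0.23, adjusted p = 0.00013, edgeR) in control and 1.40 (SE 0.23, adjusted p = 0.0039, edgeR) in Sox2Hi tumours. Without the second Sox2Hi treated replicate the latter was 1.31 (adjusted p = 0.057, edgeR).

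Ncf1 (ENSMUSG00000015950, chromosome 5, 134220053 to 134229625, minus strand) is the organiser that brings the cytosolic proteins to the membrane. Control naive libraries measured 30.9, 43.4 and 19.7 CPM, and control treated libraries 99.995 and 79.3 CPM. Sox2Hi naive libraries measured 38.8, 38.5 and 29.4 CPM, and Sox2Hi treated libraries 63.7 and 66.5 CPM. The treated libraries were higher in both grafts without overlap. The log2 fold change was 1.52 (SE 0.27, adjusted p = 0.0011, edgeR) in control tumours. In Sox2Hi tumours it was 0.87 (SE 0.27, adjusted p = 0.043, edgeR), close to the threshold, and 0.61 (adjusted p = 0.15, edgeR) under the all-gene scaling. Scaled to the summed neutrophil markers, the change in control tumours was 0.31 (adjusted p = 0.21, edgeR). With 1 library left out the Sox2Hi change was called in 2 of 10 fits, those without the second or the third control naive replicate. Ncf1 shares 408 exonic bases with Gtf2ird2 on the opposite strand, and no strand setting is given in the sources used here, so reads there cannot be told apart.

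Rac2 (ENSMUSG00000033220, chromosome 15, 78559167 to 78572783, minus strand) is the Rac GTPase of blood cells. In control tumours it was at 80.5, 115 and 68.4 CPM in naive and 351 and 232 CPM in treated libraries. In Sox2Hi tumours it was at 116, 137 and 90.7 CPM in naive and 204 and 183 CPM in treated libraries. Treated libraries exceeded naive ones in each graft, with a wider gap in control tumours. The log2 fold change was 1.73 (SE 0.25, adjusted p = 0.00045, edgeR) in control tumours. In Sox2Hi tumours the value of 0.76 (SE 0.25, 95% interval 0.20 to 1.31) missed the threshold (adjusted p = 0.053, edgeR). It passed without the second or the third control naive replicate (0.68 and 0.76, adjusted p = 0.037 and 0.041, edgeR). It also passed when only the Sox2Hi groups were fitted (0.69, adjusted p = 0.038, edgeR) and with a replicate block by description number (0.94, adjusted p = 0.0036, edgeR). Scaled to the summed neutrophil markers, the change in control tumours was 0.49 (adjusted p = 0.071, edgeR).

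Padi4 (ENSMUSG00000025330, chromosome 4, 140745865 to 140774236, minus strand) was by far the lowest of the 6 genes, with 110 to 225 reads per library. Control naive libraries measured 8.24, 8.61 and 9.52 CPM and control treated libraries 12.1 and 8.40 CPM. Sox2Hi naive libraries measured 9.49, 8.55 and 11.4 CPM and Sox2Hi treated libraries 7.01 and 8.19 CPM. The control groups overlap, and both Sox2Hi treated libraries lie below the 3 naive ones, as 25.4% of genes tested did. The log2 fold change was 0.22 (SE 0.21, 95% interval -0.25 to 0.68, adjusted p = 0.40, edgeR) in control and -0.37 (SE 0.22, 95% interval -0.84 to 0.11, adjusted p = 0.22, edgeR) in Sox2Hi tumours.

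The direction for Padi4 in control tumours depends on the scaling. Under the all-gene scaling it rose in control tumours by a log2 fold change of 0.75 (adjusted p = 0.024, edgeR), where 18.7% of genes were called higher. Without the second control treated replicate it was 0.60 (adjusted p = 0.049, edgeR). With expected background subtracted it was 0.48 in control tumours (adjusted p = 0.14, edgeR), not called. With library totals alone it was -0.33 in control tumours, not called, and -0.72 in Sox2Hi tumours, called lower (adjusted p = 0.043, edgeR). Scaled to the summed neutrophil markers it was called lower in control tumours, at -1.10 (adjusted p = 0.013, edgeR), as were 78.9% of genes tested, whose median under that scaling was -1.49. Both upper interval bounds under the expressed-gene scaling lie below the log2 fold changes of Cybb, Cyba, Ncf1, Ncf4 and Rac2 in the same graft.

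**Figure D2:**
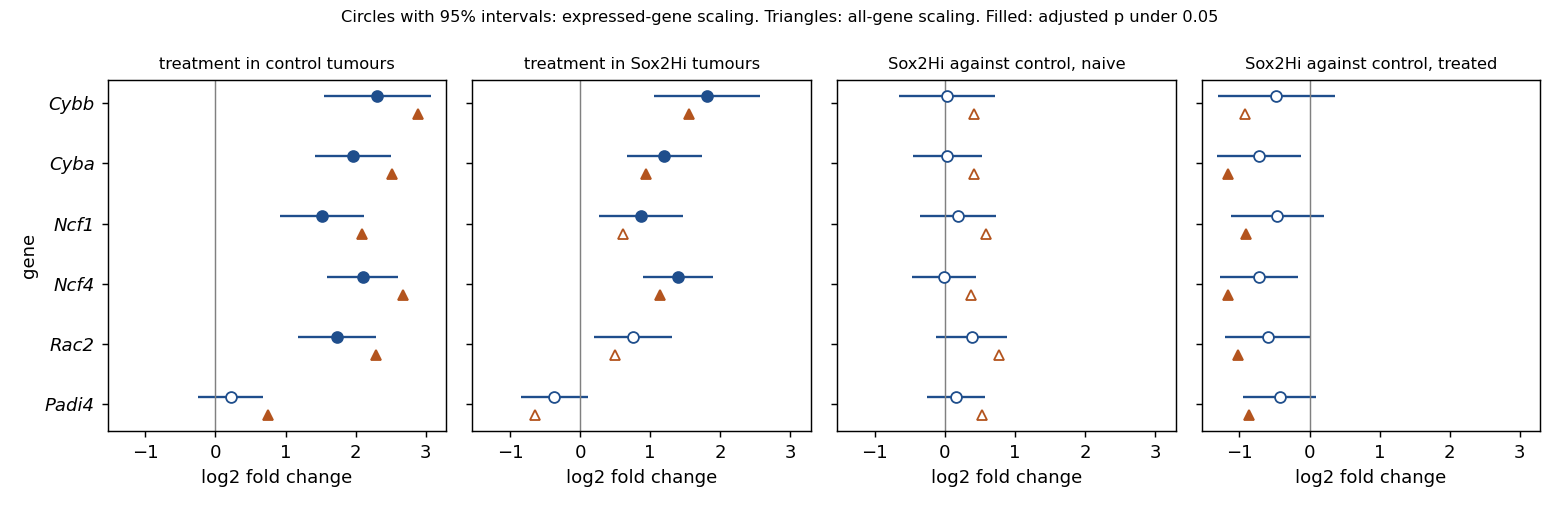
Log2 fold change of each of the 6 genes for treatment in each graft and between grafts, naive and treated, without the interaction. Values under the expressed-gene scaling have a 95% interval, and those under the all-gene scaling are shown without one. The 5 oxidase genes lie between 1.52 and 2.31 for treatment in control tumours and between 0.76 and 1.81 in Sox2Hi tumours under the expressed-gene scaling, with all naive differences between -0.01 and 0.38.

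Between naive grafts none of the 6 genes passed the test, with 0 at an unadjusted p under 0.05 beside 14.0% of all genes tested called in edgeR. DESeq2 also called 0, beside 16.6% of all genes. The log2 differences, Sox2Hi minus control, were 0.03 for Cybb, 0.04 for Cyba, 0.19 for Ncf1, -0.01 for Ncf4, 0.38 for Rac2 and 0.16 for Padi4. Standard errors were 0.19 to 0.31, and the libraries of all 6 genes overlapped, while 10.7% of genes tested were higher and 21.8% lower without overlap. The all-gene scaling also called none of the 6, beside 1.87% of its genes. When the naive libraries were fitted alone with replicate numbers as a block, Rac2 was higher in Sox2Hi by 0.45 (SE 0.12, adjusted p = 0.031, edgeR). That fit called 22.0% of all genes, and it is not established that the numbers pair libraries. The same libraries fitted alone without the block called 18 genes in all, with Rac2 at 0.43 and none of the 6 called.

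Between treated grafts all 6 genes had lower means in Sox2Hi and none passed the test in edgeR, beside 5.87% of all genes tested called lower and 20.9% called in either direction. At an unadjusted p under 0.05 there were 2, and DESeq2 called 2, Cyba and Ncf4, beside 16.2% of all genes that it called lower. The differences were -0.72 for Cyba (SE 0.27, adjusted p = 0.084, edgeR), -0.72 for Ncf4 (SE 0.25, adjusted p = 0.066, edgeR) and -0.59 for Rac2 (SE 0.28, adjusted p = 0.16, edgeR). For Cybb, Ncf1 and Padi4 they were -0.47, -0.46 and -0.43. Both Sox2Hi libraries were below both control libraries for every gene except Cybb (26.3% of genes tested). Under the all-gene scaling 5 of the 6, all but Cybb, were called lower, beside 9.57% of all genes, with differences of -0.87 to -1.17 for the 5. Under the expressed-gene scaling Ncf4 was called without the second or the third control naive replicate (-0.75 and -0.72, adjusted p = 0.032 and 0.039, edgeR). With a replicate block by title number edgeR called Cyba and Ncf4, beside 9.83% of all genes called lower. Of the 20 neutrophil markers 8 were lower in Sox2Hi treated libraries under the expressed-gene scaling and 14 under the all-gene scaling, and their part in these differences was not tested. Scaled to those markers, all 6 differences were positive, from 0.14 for Cyba and Ncf4 to 0.44 for Padi4, and none was called, beside 46.1% of all genes called higher and a median over all genes of 0.90.

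Whether the response to treatment differed between grafts was tested by the interaction term. It was negative for all 6 genes, -0.50 for Cybb, -0.76 for Cyba, -0.65 for Ncf1, -0.70 for Ncf4, -0.97 for Rac2 and -0.58 for Padi4, with standard errors of 0.30 to 0.49. None was called in edgeR, beside 19.8% of all genes tested and 2.84% called negative. The lowest adjusted p was that of Rac2, 0.086, 1 gene had an unadjusted p under 0.05, and DESeq2 called 3, beside 15.1% of all genes that it called negative. With a replicate block by title number edgeR called Cyba, Ncf4 and Rac2, beside 5.39% of all genes called negative. With a block by description number Rac2 was called, beside 1.98%. Under the all-gene scaling all 6 were called, with values of -1.34 to -1.80, beside 16.2% of all genes called negative. Scaled to the summed neutrophil markers, it was 0.15 for Cybb, 0.11 for Padi4 and -0.30 to -0.01 for the other 4, with none called, beside 22.9% of all genes called positive and a median over all genes of 0.73.

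Ratios within a library do not depend on either scaling. The summed reads of the 5 oxidase genes relative to those of the 20 neutrophil markers were, on the log2 scale, -4.33 ± 0.041 (SD, n = 3) in control naive and -3.53 ± 0.016 (SD, n = 2) in control treated libraries. They were -4.08 ± 0.062 (SD, n = 3) in Sox2Hi naive and -3.33 ± 0.37 (SD, n = 2) in Sox2Hi treated libraries. For the sum, treated libraries were higher than naive ones in each graft, and Sox2Hi naive libraries were higher than control naive ones, without overlap. Among single genes tested, 3.79% were higher in this way with treatment in control tumours, 8.06% in Sox2Hi tumours and 6.21% between naive grafts. Taken singly, Ncf1 overlapped between naive and treated libraries in control tumours and Rac2 in Sox2Hi tumours. Il1r2, the decoy receptor for interleukin 1, gave 58.6% to 62.5% of the marker reads in control naive and 31.9% to 43.2% in control treated libraries. In Sox2Hi tumours it gave 55.6% to 61.3% naive and 43.9% to 44.8% treated, and S100a8 and S100a9, which encode calprotectin, gave 10.8% to 37.7% over all libraries. The part of Il1r2 in these ratios was not tested.

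Relative to the 5 oxidase genes, Padi4 lay at -6.78 ± 0.48 (SD, n = 3) in control naive and -8.65 ± 0.33 (SD, n = 2) in control treated libraries. In Sox2Hi tumours the log2 ratios were -6.70 ± 0.49 (SD, n = 3) naive and -8.40 ± 0.23 (SD, n = 2) treated. Its ratio to the oxidase genes was lower in every treated library than in any naive library, as was that of 95.4% of the other genes tested in control and 89.9% in Sox2Hi tumours. Relative to the neutrophil markers Padi4 was also lower in all treated libraries, at means of -12.2 against -11.1 in control and -11.7 against -10.8 in Sox2Hi tumours. The same held for 83.4% of genes tested in control and 57.3% in Sox2Hi tumours.

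Some ratios between subunits also differed between naive and treated libraries. Cybb relative to Ncf1 was 2.83, 2.64 and 2.82 on the log2 scale in naive control libraries and 3.30 and 3.80 in treated ones. In Sox2Hi tumours it was 2.72, 2.53 and 2.47 naive and 2.85 and 3.97 treated. Ncf4 relative to Ncf1 had means of 2.80 and 3.36 in control naive and treated libraries and 2.55 and 3.09 in the Sox2Hi ones. Both ratios were higher in all treated libraries than in the naive libraries of the same graft. Of all genes tested, 1.64% were higher relative to Ncf1 in this way in control and 3.34% in Sox2Hi tumours. Cybb relative to Ncf4 was also higher in all treated libraries of control tumours (0.07, 0.01 and -0.19 naive, 0.10 and 0.28 treated). It overlapped in Sox2Hi tumours, where it was 0.07, -0.03 and 0.02 naive and -0.25 and 0.89 treated. The share of all genes higher relative to Ncf4 in this way was not computed. Rac2 relative to Rac1, the Rac of most cell types, also lay above the naive range in each graft, with means of -1.15 naive and -0.19 treated in control and -1.27 and -0.38 in Sox2Hi tumours. Relative to Rac1, 5.33% of genes tested were higher in this way in control and 41.5% in Sox2Hi tumours.

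**Figure D3:**
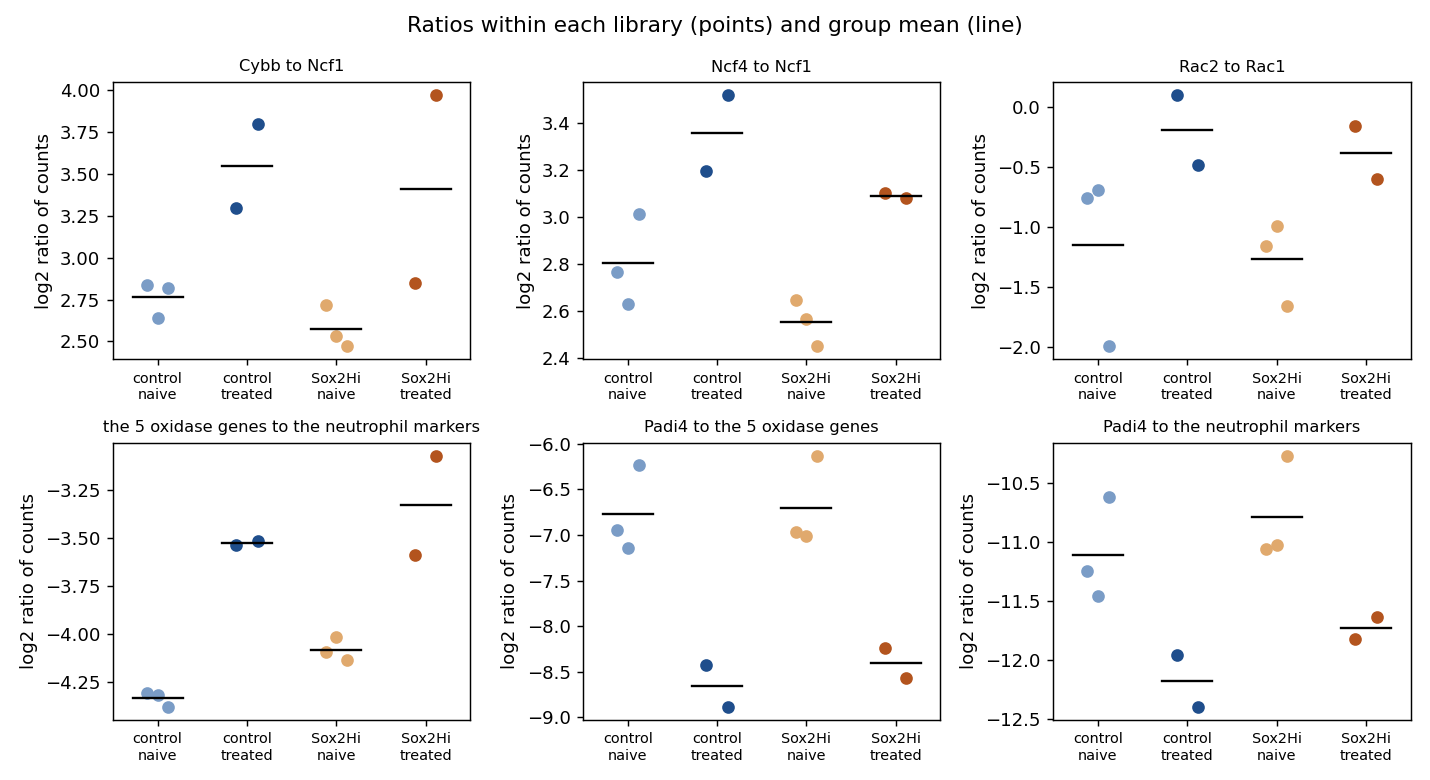
Log2 ratios of raw reads within each library, by group, with points for libraries and bars for group means. The ratio of the 5 oxidase genes to the neutrophil markers is higher, and that of Padi4 to the 5 oxidase genes lower, in all treated libraries of either graft than in its naive libraries, the latter as for 95.4% of other genes in control and 89.9% in Sox2Hi tumours.

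Of 4 genes for other proteins that work with the complex, 3 were tested. All 3 rose with treatment in control tumours and 1, Rap1a, in Sox2Hi tumours (median log2 fold changes 0.88 and 0.32). Beside them, 24.1% of all genes tested rose in control and 15.0% in Sox2Hi tumours. Rap1a, a small GTPase that copurifies with the cytochrome, rose by 1.23 in control and 0.55 in Sox2Hi tumours. With the all-gene scaling the latter was 0.28 (adjusted p = 0.40, edgeR), and none of the 4 genes was called in Sox2Hi tumours. Cybc1, a chaperone for the Cybb and Cyba pair, had values of 0.88 and 0.32 and Rac1 of 0.72 and -0.11, of which the control ones passed the test. The proton channel gene Hvcn1, at 1.69 to 10.8 CPM, was under the filter.

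Other oxidases and deiminases were low. Of the 9 genes for other Nox and Duox enzymes and their partners 2 were tested, and Nox4 fell in control tumours (log2 fold change -0.57). Padi1, Padi2, Padi3 and Padi6 lay between 0.58 and 6.20 CPM, below the filter on the mean level, with 36.5% to 68.2% of their reads expected from background. Under the all-gene scaling, which tested these 4, none was called in either treatment comparison.

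Among 20 signalling genes upstream of the oxidase, 15 rose and 1 fell in control tumours (median 0.88) and 3 rose in Sox2Hi tumours (median 0.53). Of all genes tested, 24.1% rose and 33.1% fell in control tumours and 15.0% rose and 6.57% fell in Sox2Hi tumours, so the 3 of 20 are at the general share. Fpr1 and Fpr2, the formyl peptide receptors that trigger the burst, rose by 2.60 and 1.91 in control and by 1.24 and 1.26 in Sox2Hi tumours. Between treated grafts both were lower in Sox2Hi, by log2 differences of -1.44 (SE 0.28, adjusted p = 0.0093, edgeR) and -1.03 (SE 0.25, adjusted p = 0.018, edgeR). Fpr1 had the only interaction called in this list under the expressed-gene scaling, -1.37 (SE 0.35, adjusted p = 0.019, edgeR). The all-gene scaling called a negative interaction for 14 of the 20, and there 18 rose in control and 2 in Sox2Hi tumours. Among all genes under that scaling, 16.2% had a negative interaction called, 18.7% rose in control and 1.79% rose in Sox2Hi tumours.

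Of 15 components and effectors of traps, 11 were tested. With treatment 8 rose and 1 fell in control tumours (median 1.33), and 7 rose and 2 fell in Sox2Hi tumours (median 0.82). Of all genes tested, 24.1% rose and 33.1% fell in control tumours and 15.0% rose and 6.57% fell in Sox2Hi tumours. Camp, the cathelicidin of the granules and also among the neutrophil markers, rose by 3.84 (SE 0.88) and 3.66 (SE 0.88). Casp4, the caspase that senses lipopolysaccharide, rose by 2.10 and 1.64 and was lower in Sox2Hi than control treated libraries (-0.87, SE 0.22, adjusted p = 0.021, edgeR). Mlkl, the pore former of necroptosis, fell in control tumours (-0.61) and Hmgb1, a chromatin protein, in Sox2Hi tumours (-0.70). The primary granule genes Mpo and Elane, which traps carry as proteins, were below the filter, at 0.96 to 3.08 CPM for Mpo and at most 0.98 CPM for Elane, which had no read in 1 library. In the all-gene scaling 9 of 14 tested genes of this list rose in control tumours, 3 rose and 2 fell in Sox2Hi tumours, and Mlkl was at -0.09 (adjusted p = 0.79, edgeR) in control tumours. Among all genes under that scaling 18.7% rose in control tumours, and 1.79% rose and 1.82% fell in Sox2Hi tumours.

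Of 10 genes that supply NADPH or its precursors, 4 rose and 2 fell in control tumours (median 0.17) and 2 rose in Sox2Hi tumours (median 0.05), which is near the general share of rises in Sox2Hi tumours and below that of falls in control tumours. Nadk, the kinase that makes NADP from NAD, rose by 1.79 and 0.82, and Taldo1, transaldolase, by 1.53 in control tumours. Pgd, an NADPH-forming dehydrogenase of the pentose phosphate pathway, rose by 0.69 in Sox2Hi tumours. Under the all-gene scaling 6 rose and none fell in control tumours, none was called in Sox2Hi tumours, and the fall of Rpia in control tumours (-0.65, the ribose phosphate isomerase) became -0.10. That scaling called 18.7% of all genes higher and 15.3% lower in control tumours.

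Genes that remove superoxide and peroxide were measured with the oxidase that makes superoxide. Of 19 tested, 12 rose and 2 fell in control tumours (median 1.07), and 6 rose in Sox2Hi tumours (median 0.44). Beside them, 24.1% of all genes tested rose and 33.1% fell in control tumours, and 15.0% rose in Sox2Hi tumours. Prdx5, a peroxiredoxin, rose by 2.57 and 1.81, Hmox1, haem oxygenase, by 2.80 in control tumours, and Sod2, the mitochondrial superoxide dismutase, by 1.48 in Sox2Hi tumours. Sod1, its cytosolic counterpart, fell in control tumours (-0.78), though not under the all-gene scaling (-0.25, adjusted p = 0.44, edgeR). Gpx3 fell in control tumours too (-1.03, adjusted p = 0.038, edgeR), with overlapping libraries, and was not called under the all-gene scaling (-0.53, adjusted p = 0.31, edgeR). That scaling called 14 of 20 genes of the list higher in control and 2 in Sox2Hi tumours, and none lower. It called 18.7% and 1.79% of all genes higher. Cat, catalase, was called between naive grafts, as 1 gene of the list under the expressed-gene scaling and 1 of 2 under the other, with a log2 difference of 1.00 (SE 0.20, adjusted p = 0.013, edgeR) toward Sox2Hi. Gclm and Gsr, which make and recycle glutathione, had interactions of -1.19 and -1.07.

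**Figure D4:**
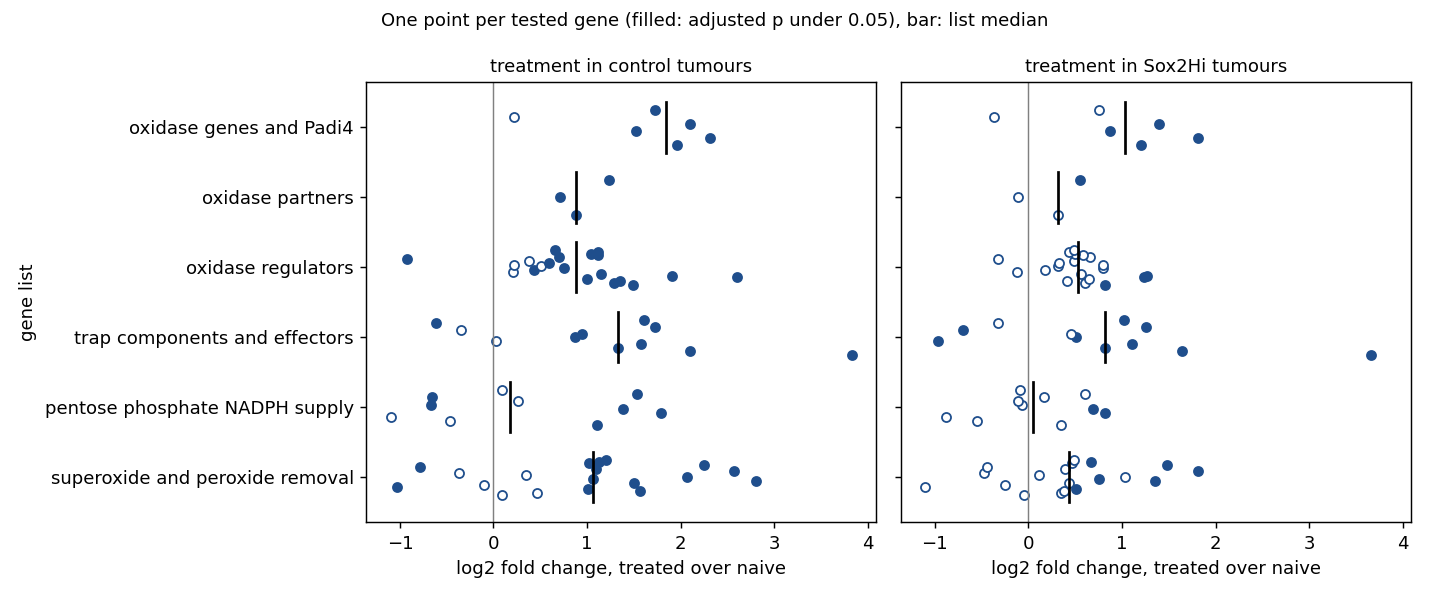
Log2 fold change of every tested gene of 6 lists with treatment in control and in Sox2Hi tumours (expressed-gene scaling), with the list medians. The medians in control tumours run from 0.17 for NADPH supply to 1.84 for the oxidase genes and Padi4.

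Markers of other cells were measured too, and their part in the oxidase results was not tested. The 14 macrophage and monocyte markers, cells that also use this oxidase, summed to 986 to 1500 CPM in control naive and 1843 to 2544 CPM in control treated libraries. In Sox2Hi tumours the sums were 1358 to 1900 CPM naive and 1273 to 2409 CPM treated. Of 13 tested, 4 rose in control and 3 in Sox2Hi tumours (medians 0.30 and 0.41). Counts in this paragraph stand against 24.1% of all genes that rose and 33.1% that fell in control tumours, and 15.0% and 6.57% in Sox2Hi tumours. The 9 fibroblast and endothelial markers summed to 320 to 840 CPM in control naive and 109 to 133 CPM in control treated libraries, and to 506 to 710 CPM and 135 to 358 CPM in the Sox2Hi ones. The 6 erythroid markers went from 620 to 1606 CPM to 52.2 to 311 CPM in control and from 273 to 586 CPM to 26.0 to 66.2 CPM in Sox2Hi tumours. The 12 T and NK cell markers summed to 61.3 to 103 CPM naive and 145 to 494 CPM treated in control tumours (5 of 8 tested rose, median 1.96) and to 42.4 to 159 CPM and 185 to 296 CPM in Sox2Hi tumours (2 of 8 rose). The 10 dendritic cell markers summed to 6972 to 10462 CPM naive and 17186 to 18724 CPM treated in control tumours, with 2 of 6 tested higher and 1 lower. In Sox2Hi tumours they summed to 6565 to 10039 CPM naive and 9543 to 23161 CPM treated, with none of the 6 higher and 1 lower. Most of each sum was Cd74 and H2-Ab1. Mast cell and eosinophil markers went from 60.9 to 260 CPM to 16.7 to 39.1 CPM in control tumours, where 4 of 5 tested fell, and from 84.7 to 117 CPM to 38.7 to 78.8 CPM in Sox2Hi tumours, where 1 fell. Keratinocyte markers fell in 4 of 9 tested in control and 2 of 9 in Sox2Hi tumours. The 9 B and plasma cell markers summed to 174 to 372 CPM naive and 447 and 1497 CPM treated in control tumours. In Sox2Hi tumours they summed to 565, 3929 and 688 CPM naive and 413 and 492 CPM treated. Of 7 B and plasma cell markers tested, 2 rose in control tumours and none was called in Sox2Hi tumours. No marker of these lists was at 0 in all libraries.

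The genes whose profile was most like each of the 6 were ranked by Pearson's r of log2(CPM + 1) over the 10 libraries, as a description, among 2554 or 2555 genes whose mean reached 50 CPM. The 10 libraries share the 4 groups and the treatment difference. For Cybb they were Lyz2, Sod2 and Fas (r = 0.991, 0.989 and 0.988), and for Cyba Fas, Lcp2 and Hcar2 (0.995, 0.995 and 0.994). Ncf4 was followed by Rab32, Cers6 and Gsap (0.994, 0.993 and 0.993). Ncf1 had Lcp1, N4bp1 and Tlr4 (0.989, 0.984 and 0.983) and Rac2 had Fgr, Nadk and Lcp1 (0.987, 0.986 and 0.986). Padi4 had Soat1, Tnfrsf26 and Fam45a (0.930, 0.868 and 0.840). Among the 5 oxidase genes themselves r ran from 0.895 for Cybb with Rac2 to 0.987 for Cybb with Cyba and Cyba with Ncf4, and Padi4 had r between -0.10 and 0.034 with them.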

How the data were processed

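The authors deposited 1 table of estimated counts per gene, whole numbers for 10 libraries. The submitters' processing notes name kallisto 0.44.0 and mm10, with no role for either, and strand and annotation settings are not given in the sources used here. The 4 values over 6 digits all end in 0, so counts may be rounded. RNA was extracted with a Zymo microprep kit and libraries were made with a NEBNext low-input kit, per the labels' protocols. The 6 genes, the gene lists and the tests were chosen with earlier results of these data known. Symbols and coordinates came from GENCODE M21, which matched 55144 of 55385 identifiers. The 96 entries that are not mouse genes were left out.

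All 10 libraries entered 1 edgeR 4.0.16 quasi-likelihood model (R 4.3.3) of the 4 groups, over 11274 genes whose mean reached 5 CPM, with TMM factors computed on them and Benjamini-Hochberg adjustment over all of them. The common biological coefficient of variation was 0.212. Each standard error was derived from the log2 fold change and F. On simulated counts for 11274 genes, in the comparison of treated with naive control tumours, 44% of changes of 1 on the log2 scale and 97% of changes of 2 were recovered, and 1.4% of calls were false. The simulation changed 100 genes by each size, as many up as down, and shifted neither composition nor background. In the data 57.3% of genes were called in that comparison, so the share of false calls may not carry over. Alternatives were other factors and filters, DESeq2 1.42.0, fits on the groups compared alone, background subtraction, a Ddx3y term, replicate blocks and each library left out. A block on the naive libraries alone and scaling to the summed neutrophil markers were chosen after seeing the data.

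Genes named besides the 6 were the oxidase partners, other Padi genes and the 3 closest profiles. Others came from the 2 called genes with the largest rise and fall per list and comparison (mean of at least 10 CPM), not all of which are named. Nox4, Cd74, H2-Ab1, Itgax, Ccr7, Flt3, Xcr1, Clec9a, Cd209a, Siglech, Zbtb46, Il1r2, S100a8, S100a9, Mpo, Elane, Ly6g and Ddx3y were added after their values were seen. Replicates differed beyond sampling noise (chi-square per degree of freedom at least 12.5), so none was counted as a repeat. Whether title numbers pair libraries was checked by the correlation, across genes, of each library's deviation from its group mean. It was 0.273, 0.325 and 0.474 in the 3 naive pairs of like number, and -0.43 to 0.044 in naive pairs of unlike number. A naive and a treated Sox2Hi library of unlike number reached 0.280, so the check does not establish pairing. The treated pairs gave -0.095, which is 1 value, since deviations in a group of 2 mirror each other. Promoter windows of Ncf4 and Rac2 were not used here. A further gene of the complex is not reported here.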

Additional observations from a re-analysis of the deposited data

How the results depend on the processing

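Over 630 values of single genes under other settings, 521 kept their direction and their side of the threshold, 53 gained a call, 24 lost it and 32 turned in sign. Of those that turned 1 was called: Padi4 with treatment in control tumours, -1.10 when scaled to the summed neutrophil markers, which called 78.9% of all genes lower (-0.33 with library totals, not called). That scaling also turned the differences between treated grafts, to 0.38 for Cybb, 0.14 for Cyba, 0.40 for Ncf1, 0.14 for Ncf4, 0.28 for Rac2 and 0.44 for Padi4, and the interactions of Cybb (0.15) and Padi4 (0.11). Between naive grafts, where values lay near 0, background subtraction turned Cybb (-0.015) and Cyba (-0.0078). Ncf4 turned to 0.37 with the all-gene scaling, 0.057 with RLE factors and with DESeq2, 0.098 with library totals, 0.48 with all genes that had a count, 0.031 with only the groups compared, 0.048 with the replicate block on the naive libraries alone and 0.17 with the marker scaling. With 1 library left out the naive differences ran from -0.20 to 0.33 for Cybb, -0.13 to 0.26 for Cyba, -0.062 to 0.58 for Ncf1 and -0.19 to 0.27 for Ncf4, and that of Cybb between treated grafts from -1.29 to 0.0021. For treatment in control tumours 5 or 6 of the 6 genes were called under every setting except the neutrophil-marker scaling, which called 4, Cybb, Cyba and Ncf4 higher and Padi4 lower. For treatment in Sox2Hi tumours library totals gave 4, with Padi4 lower and Ncf1 lost, and 4 became 5 with only the groups compared and with the block by description number, 3 with the all-gene scaling, RLE factors, background subtraction, the Ddx3y term and the block by title number, 2 with all genes that had a count, 1 under the neutrophil-marker scaling, and 0 to 5 with 1 library left out; the 0 came without the second Sox2Hi treated replicate. Between naive grafts 0 became 1 (Rac2) with all genes that had a count and with the replicate block on the naive libraries alone, and stayed 0 with any library left out. Between treated grafts 0 became 5 under the all-gene scaling, 1 with RLE factors, 5 with all genes that had a count, 2 with DESeq2, 2 with the replicate block by title number, and 0 to 1 with 1 library left out. For the interaction 0 became 6 under the all-gene scaling, 1 with RLE factors, 6 with all genes that had a count, 3 with DESeq2, 3 with the replicate block by title number and 1 with the block by description number, and 0 to 3 with 1 library left out (3 without the second control naive replicate, 2 without the second control treated and 1 without the second Sox2Hi treated). Treated libraries share only a number in that block. The cause was not tested.

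Among all genes the calls in control tumours ranged from 5561 to 10078 over scalings and tools (6456 in the main model), with 15.3% to 71.1% of them higher (42.1% in the main model). In Sox2Hi tumours they ranged from 899 to 3049 (2433; 21.9% to 57.8% higher against 69.5%), between naive grafts from 554 to 1871 (1576; 22.3% to 96.9% against 15.0%), between treated grafts from 911 to 4076 (2353; 15.4% to 94.2% against 71.9%) and for the interaction from 1304 to 8149 (2228; 22.2% to 95.1% against 85.6%). These shares also rest on single libraries: without the third Sox2Hi naive replicate 4 genes were called between naive grafts, without the second Sox2Hi treated replicate 199 with treatment in Sox2Hi tumours, and without the second control treated replicate 284 between treated grafts. Padi4 had at most 225 reads per library, and the treated groups have 2 libraries each.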
